A study of Mus musculus with 9 samples.

Results

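The 8 genes described here encode replacement histone variants. H2afx encodes H2A.X. H2afz and H2afv encode the H2A.Z histones. H2afy encodes macroH2A1. H3f3a and H3f3b both encode H3.3. H1f0 and H1fx encode linker histones. They were chosen by name from the 32285 genes of the count matrices, and all 8 passed the filter on low counts in every comparison across genes. Whole testes of male mice at postnatal day 24 (PND24) were profiled by single-cell RNA-seq with 3′ unique molecular identifiers (UMIs), 1 library per mouse. The 4 control mice were littermates or non-littermates on the C57BL/6J background. The 2 NELF-B conditional knockout (cKO) mice carried 1 null and 1 floxed allele of Nelfb (exons 1–4) and the Stra8-iCre transgene, and the 3 TDP-43 cKO mice carried 1 null and 1 floxed allele of Tardbp (exon 3) and the same transgene. Stra8-iCre acts in spermatogonia from PND4, so somatic cells of both cKO groups keep the floxed allele but still carry the null allele.

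Canonical histones are made in S phase from clustered genes whose transcripts end in a stem-loop instead of a poly(A) tail. Replacement variants are made outside S phase as well, from single genes with polyadenylated transcripts, and chaperones place them in chromatin where nucleosomes are lost or exchanged. In male meiosis H2A.X is phosphorylated at double-strand breaks and over the unsynapsed X and Y chromosomes, macroH2A1 is found on the sex chromosomes, and H3.3 replaces other H3 in the sex body and at active genes. H1f0 is known from cells that have left the cell cycle, and its product, H1.0, and the H1fx product, H1.10, belong to the somatic-type linker histones, as opposed to the testis linker histones of spermatocytes and spermatids.

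H2afx has features of both kinds of gene. Its annotated transcript of 1384 bases (H2afx-201, chr9:44334694-44336077, plus strand, GRCm38) has no intron and goes on for 822 bases past a short inverted repeat that lies 46 bases after the stop codon, in the 3′ UTR (chr9:44335240-44335255). The repeat is shown because the oligo(dT) capture used here counts polyadenylated RNA and would not count transcripts that end at it. The 6-base stem is in capitals and the 4-base loop in lower case, and no other member had such a match.
H2afx stem-loop: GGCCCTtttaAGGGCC

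H3f3a (chr1:180800832-180813943, minus strand) and H3f3b (chr11:116021912-116027962, minus strand) encode the same protein from different bases. Their coding sequences are 408 bases long and differ at 95 of them, in 83 of 136 codons, and 0 of those codons change the residue. The first 150 coding bases are shown, with the 32 differing bases in capitals, to show how far the genes of the same protein differ. UMIs were captured at the 3′ end and need not lie in these bases.
H3f3a coding bases 1 to 150: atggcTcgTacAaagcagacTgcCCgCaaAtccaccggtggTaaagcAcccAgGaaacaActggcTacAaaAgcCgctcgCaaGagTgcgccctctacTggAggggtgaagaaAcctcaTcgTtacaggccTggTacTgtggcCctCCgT
H3f3b coding bases 1 to 150: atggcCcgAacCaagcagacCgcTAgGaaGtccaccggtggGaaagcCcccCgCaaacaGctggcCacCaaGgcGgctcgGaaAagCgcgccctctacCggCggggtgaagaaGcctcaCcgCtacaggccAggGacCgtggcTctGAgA

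H2afz (chr3:137864487-137866922, plus strand) and H2afv (chr11:6427229-6444443, minus strand) also differ in many bases and few residues. Their 384 coding bases differ at 80 positions, in 73 of 128 codons, and 3 of those codons change the residue. The capitals below mark the 34 bases that differ in the first 150.
H2afz coding bases 1 to 150: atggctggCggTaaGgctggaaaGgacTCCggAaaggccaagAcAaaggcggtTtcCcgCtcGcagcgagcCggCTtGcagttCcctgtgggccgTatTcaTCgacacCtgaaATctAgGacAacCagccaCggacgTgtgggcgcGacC
H2afv coding bases 1 to 150: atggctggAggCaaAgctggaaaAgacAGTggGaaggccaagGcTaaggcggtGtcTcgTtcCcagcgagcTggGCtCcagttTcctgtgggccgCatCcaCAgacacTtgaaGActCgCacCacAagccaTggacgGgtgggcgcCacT

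The 250 bases before the RefSeq start site (GRCm38.p6) were searched for CCAAT on both strands and for TATAAA. Of 32851 promoters of that length, 33.8% held CCAAT at least once, 10.1% at least 2 times and 0.84% at least 4 times. H3f3b and H2afv each had 4 matches, H2afz had 2 and H3f3a had 1, while H2afy, H1f0 and H1fx had 0 (H2afx had no entry). TATAAA was found once in H3f3b, 27 bases before the start, and in 0 of the other promoters, against 12.4% of all promoters on either strand. Promoters of H3f3b, H2afz and H2afv are shown 5′ to 3′ with the matches in capitals (ATTGG is CCAAT on the other strand), since the genes of the H3.3 and H2A.Z pairs parted in level. The H3f3a window overlaps exons of longer transcripts and was not printed. The printed H3f3b window lies before the RefSeq start but within the annotated span of the gene given above.
H3f3b, chr11:116024505-116024754, minus strand: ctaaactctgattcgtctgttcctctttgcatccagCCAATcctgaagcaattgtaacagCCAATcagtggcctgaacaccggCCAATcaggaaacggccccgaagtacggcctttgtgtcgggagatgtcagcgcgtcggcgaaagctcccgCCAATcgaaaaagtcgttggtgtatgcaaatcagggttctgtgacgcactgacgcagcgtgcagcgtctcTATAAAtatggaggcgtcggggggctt
H2afz, chr3:137864237-137864486, plus strand: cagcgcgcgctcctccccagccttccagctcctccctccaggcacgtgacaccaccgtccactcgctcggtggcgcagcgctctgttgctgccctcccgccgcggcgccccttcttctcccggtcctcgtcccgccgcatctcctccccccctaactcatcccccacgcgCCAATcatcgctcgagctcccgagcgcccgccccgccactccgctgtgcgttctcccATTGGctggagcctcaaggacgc
H2afv, chr11:6444444-6444693, minus strand: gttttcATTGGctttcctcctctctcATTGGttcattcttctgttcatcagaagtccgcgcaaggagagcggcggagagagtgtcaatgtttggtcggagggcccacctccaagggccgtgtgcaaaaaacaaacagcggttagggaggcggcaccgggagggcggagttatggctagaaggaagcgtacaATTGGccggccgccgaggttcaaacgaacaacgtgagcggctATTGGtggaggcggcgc

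Libraries held 119203347 to 159407373 UMIs, and 45132 barcodes passed the filters. Of these, 27747 lay in 27 clusters named from markers, and 24402 remained after removing, from the respective cKO mice, germ cells in which the deleted gene was still detected (233 in NELF-B cKO and 3112 in TDP-43 cKO). With no cell left out, Nelfb in spermatogonia (SG) was 63.4 to 76.4 counts per 1000000 UMIs (CPM) in control and 5.08 to 5.80 in NELF-B cKO, and Tardbp was 64.3 to 71.9 in control and 30.9 to 35.2 in TDP-43 cKO. Classes were undifferentiated and differentiating SG, spermatocytes (SC) at preleptotene, called pL, at leptotene (L) or zygotene (Z) and later at pachytene (P) or diplotene (D), round spermatids (RS) and somatic types, and pL, L and Z together are called early SC. The 8 genes and related histone and cycling genes were kept out of the clustering. UMIs were summed per mouse and class, a class needing at least 20 cells in a mouse. In such sums CPM is a share of all UMIs, so a change in one gene's RNA cannot be told apart from a change in the rest of a cell's RNA. UMIs in nearly empty droplets (at most 100 UMIs) also held the members, from 9.78 to 47.9 CPM for H1f0 and up to 1341 to 1982 CPM for H3f3b, and levels at or below these ranges may be free RNA. This free RNA differed between groups. H1f0 was at 9.78 to 17.9 CPM in control and 41.1 to 47.9 CPM in the cKO mice, and H2afv at 101 to 131 CPM in control, 142 and 297 CPM in NELF-B cKO and 248.6 to 304 CPM in TDP-43 cKO. H2afz was at 1064 to 1267 CPM in control, 1221 and 1015 CPM in NELF-B cKO and 682 to 772 CPM in TDP-43 cKO.

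In control mice the members were compared between successive stages of germ cell development. Calls are at an adjusted p under 0.05 in edgeR's quasi-likelihood test with the mouse as a block. In early SC against SG, 6 of 8 members were higher and 1 was lower, where 23.9% of 22572 genes were called higher and 37.9% lower. In P against early SC, 3 were higher and 4 lower (31.5% and 25.4% of genes). In D against P, 1 was higher and 2 lower (27.8% and 18.0%), and in RS against D, 2 were higher and 4 lower (40.0% and 29.4%). Smaller steps, chosen after the levels were seen, were tested in the same way over 21883 genes. In differentiating against undifferentiated SG, 4 members were higher and 1 lower (17.4% and 15.7% of genes), and in pL against differentiating SG also 4 and 1 (13.4% and 18.1%). In L against pL, 4 were higher and 1 lower (20.9% and 19.5%), and in Z against L, 5 were higher and 2 lower (26.4% and 25.5%). Together the 8 genes took 0.327 to 0.353% of UMIs in undifferentiated SG of control mice, 0.669 to 0.808% in Z and 0.299 to 0.337% in D.

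**Figure D1:**
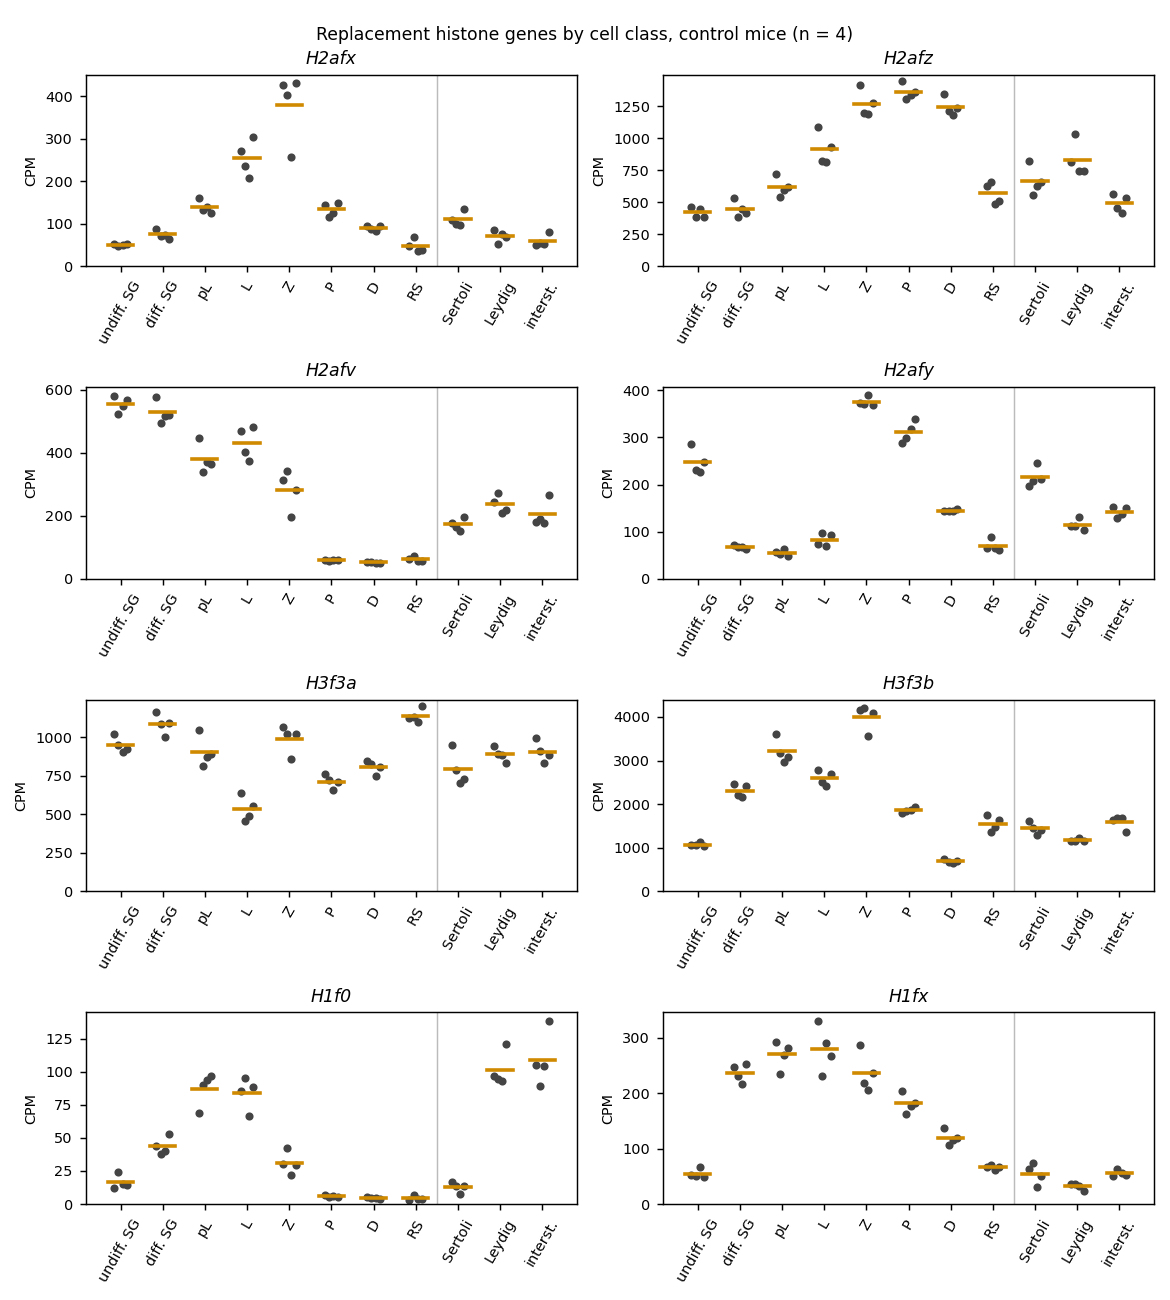
CPM of each member (y axis, from 0, a separate scale per gene) by cell class (x axis, germ cells left of the grey line and somatic cells right of it) in the 4 control mice, with 1 point per mouse and the mean as a bar. H2afx peaks in Z, H2afz stays high from Z to D, H2afv is low from P on, H2afy is high in undifferentiated SG, low in differentiating SG to L and high again in Z and P, and H1f0 is highest in Leydig and interstitial cells.

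H2afx, whose product marks double-strand breaks when phosphorylated, had the largest log2 fold change of the members in early SC against SG. It was at 52.8, 46.6, 49.7 and 52.9 CPM in undifferentiated SG of control mice 1 to 4, at 160, 133, 139 and 125 CPM in pL and at 427, 403, 256 and 431 CPM in Z. Control mouse 3 was the lowest in Z, but no Z value overlapped a pL value. The log2 fold change of early SC against SG was 2.28 ± 0.15 (SE, n = 4 mice, adjusted p = 4.28e-15). Each smaller step was called too, with log2 fold changes of 0.52 ± 0.16 into differentiating SG, 0.96 ± 0.15 into pL, 0.97 ± 0.15 into L and 0.91 ± 0.14 into Z. The first of them was lost without control replicate 1 (adjusted p = 0.059). P against early SC was -0.57 ± 0.14, a call lost with finer clusters (-0.017, adjusted p = 0.932). H2afx was at 115 to 148 CPM in P and 36.7 to 69.2 CPM in RS. RS were 1.05 ± 0.14 log2 units below D (adjusted p = 7.6e-08), at levels under the free RNA of 85.9 to 129 CPM. The values in undifferentiated SG lay under this free RNA too. Within the 4 H2A variant genes, H2afx had 4.0% of the UMIs in undifferentiated SG (3.8 to 4.2%, n = 4) and 16.3% in Z (12.6 to 18.3%).

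H2afz and H2afv, which encode the H2A.Z histones found at promoters, went opposite ways. H2afz was at 460, 386, 450 and 382 CPM in undifferentiated SG, 1415, 1196, 1192 and 1273 CPM in Z and 1444, 1303, 1337 and 1360 CPM in P. H2afv was at 581, 522, 547 and 568 CPM in undifferentiated SG and at 59.2, 57.0, 58.3 and 58.7 CPM in P. The SG and P values of either gene did not overlap between mice. Early SC against SG gave a log2 fold change of 1.38 ± 0.12 for H2afz and P against early SC one of -1.87 ± 0.11 for H2afv (adjusted p = 8.82e-12 and 9.85e-16). The H2afz share of the UMIs of the pair was 43% in undifferentiated SG (40.2 to 45.1%), 62.0% in pL, 81.9% in Z and 95.9% in P (95.8 to 96.1%). In RS, H2afz was 1.25 ± 0.12 log2 units below D (adjusted p = 4.45e-11), while H2afv did not pass the test (0.12 ± 0.11, adjusted p = 0.329). From P on, H2afv was at 50 to 71.7 CPM, below its free RNA of 101 to 304 CPM. Free RNA of H2afz was at 1064 to 1267 CPM in control mice. This is above all its values in undifferentiated SG and pL, where its share was lowest, and overlaps those in Z. H2afv in L and Z depended on where the stages were divided. With finer clusters its difference of L from pL was -0.43 in place of 0.29, and that of Z from L was 1.19 in place of -0.28. The 0.29 was lost without control replicate 2 (adjusted p = 0.11) or 4 (0.247), and the -0.28 without control replicate 3 (0.228).

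**Figure D2:**
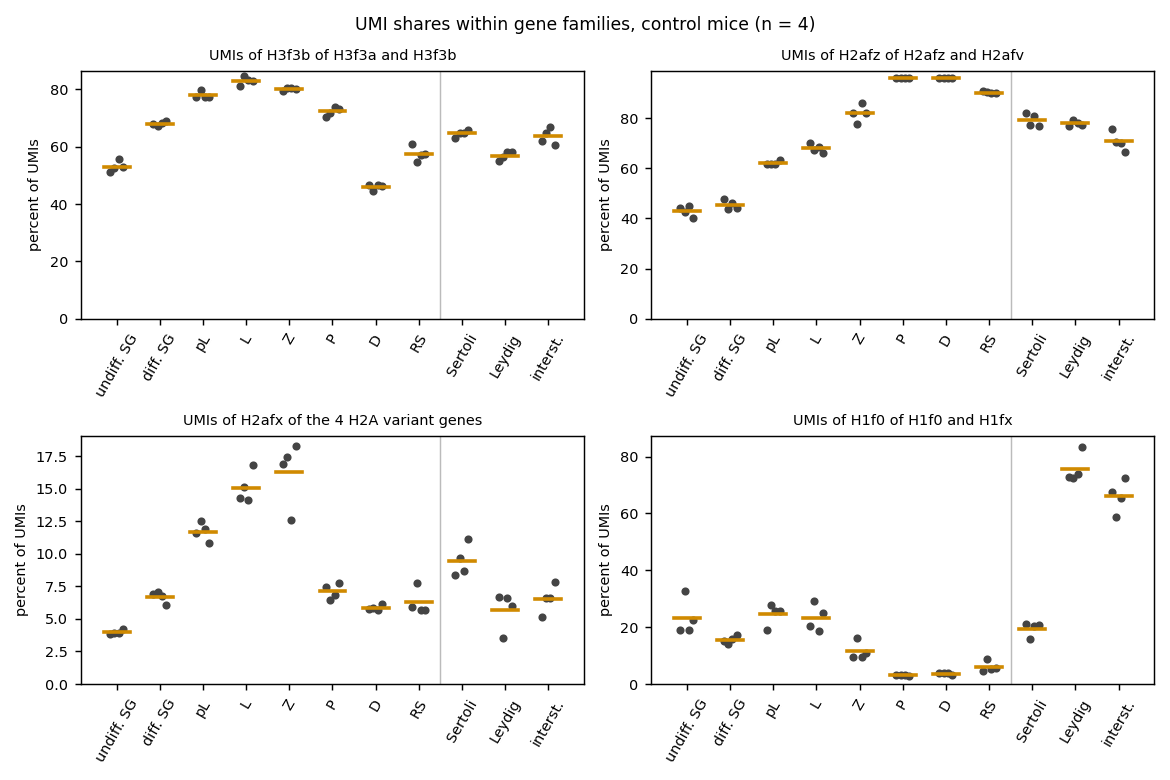
Percent of the UMIs of a gene pair or family (y axis, from 0) that came from the gene named in each panel, by cell class (x axis), with 1 point per control mouse (n = 4) and the mean as a bar. The H2afz share climbs from 43% in undifferentiated SG to 95.9% in P, and the H3f3b share climbs to 83.0% in L and drops to 46.1% in D.

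H2afy, which encodes the macroH2A1 histone with its large non-histone domain, was lost and regained. Undifferentiated SG had 285, 230, 227 and 247 CPM, and differentiating SG had 70.6, 68.1, 66.6 and 62.6 CPM. L had 73.5, 97.9, 68.9 and 92.1 CPM, and Z had 373, 371, 390 and 369 CPM. Both steps were far larger than the spread between mice, with log2 fold changes of -1.92 ± 0.11 and 2.51 ± 0.11 (adjusted p = 3.4e-17 and 2.38e-22). P stayed at 289 to 338 CPM, and D was 0.80 ± 0.10 and RS again 1.17 ± 0.11 log2 units lower (adjusted p = 6.63e-08 and 8.13e-12). The values in differentiating SG, pL, L and RS lie below the free RNA of 110 to 159 CPM. Early SC against SG, 1.04 ± 0.10, was -0.20 (adjusted p = 0.182) with finer clusters, which put 199 to 541 cells per mouse into P in place of 65 to 231. L against pL, 0.68 ± 0.12, was -0.62 with those clusters.

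H3f3a and H3f3b, the 2 genes for H3.3, had separate courses although their product is the same. H3f3b was at 1064, 1057, 1133 and 1032 CPM in undifferentiated SG, at 2457, 2210, 2164 and 2412 CPM in differentiating SG and at 3606, 3179, 2964 and 3087 CPM in pL. It reached 4168, 4215, 3566 and 4091 CPM in Z and was 1808 to 1935 CPM in P, 659 to 745 CPM in D and 1360 to 1756 CPM in RS. In each mouse H3f3b was lowest in D and highest in Z among germ cells. The log2 fold change was 1.06 ± 0.09 into differentiating SG, 0.53 ± 0.09 into pL, -1.13 ± 0.11 from P to D and 1.06 ± 0.11 from D to RS (adjusted p at most 1.9e-05). P against early SC was -0.27 ± 0.11, lost without control replicate 1 (adjusted p = 0.16) and 0.43 with finer clusters. Free RNA of H3f3b was at 1341 to 1609 CPM in control mice. This is above all its values in undifferentiated SG and D and overlaps those in RS.

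H3f3a moved over a narrower range. Its lowest values were in L, at 638, 458, 488 and 556 CPM, and its highest mean was in RS, at 1124, 1135, 1097 and 1206 CPM. Its free RNA was at 725 to 1036 CPM in control mice, above all values in L and below those in RS. L was 0.66 ± 0.09 log2 units below pL and Z was 1.23 ± 0.09 above L (adjusted p = 4.37e-08 and 9.5e-16). D was 0.49 ± 0.10 above P, where H3f3b was lower. P against early SC was 0.37 ± 0.10 (adjusted p = 0.00214), but -0.28 when scaled by library size alone, a scaling that moved the median of all genes from 0.00 to -0.61, and it was lost without control replicate 2 (adjusted p = 0.138). H3f3b held 53.0% of the H3.3 UMIs in undifferentiated SG (51.0 to 55.6%, n = 4), 68.0% in differentiating SG, 83.0% in L (81.3 to 84.6%, with H3f3a below its free RNA), 72.3% in P and 46.1% in D (44.7 to 46.8%). In undifferentiated SG and D, H3f3b was below its own free RNA. UMIs from processed copies of H3f3a, such as H3f3a-ps1, could not be assigned with certainty.

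The linker histone genes were higher in differentiating than in undifferentiated SG, and later H1f0 was lower in P than in early SC and H1fx lower in RS than in D. H1fx was at 52.1, 49.7, 66.1 and 49.1 CPM in undifferentiated SG and at 246, 230, 216 and 252 CPM in differentiating SG, a log2 fold change of 2.06 ± 0.16 (adjusted p = 1.1e-13). It stayed at 205 to 330 CPM from pL to Z and was 61.5 to 69.5 CPM in RS, 0.95 ± 0.14 log2 units below D (adjusted p = 5.4e-07). Its values in undifferentiated SG and RS lie below its free RNA of 111 to 203 CPM. H1f0 was at 12.3, 24.1, 15.5 and 14.2 CPM in undifferentiated SG, near its free RNA in the same mice (9.78, 17.9, 14.6 and 14.9 CPM). In pL it was at 68.5, 90.4, 93.6 and 96.6 CPM, with log2 fold changes of 1.32 ± 0.18 into differentiating SG and 1.06 ± 0.15 into pL. It was 21.8 to 42.4 CPM in Z and 3.77 to 6.77 CPM in P and D, at which level the 4 mice were all below the free RNA. P against early SC was -2.51 ± 0.14 for H1f0 (adjusted p = 1.39e-16). H1fx in Z against L was 0.10 ± 0.14 and did not pass the test, but was -1.15 with finer clusters. Its P against early SC, 0.18 ± 0.14, was -0.47 (adjusted p = 0.00301) when scaled by library size alone.

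Sertoli cells, the somatic cells that enclose the germ cells, differed from SG at all 8 genes. There 3 members were higher and 5 lower, where 24.5% of genes were called higher and 34.5% lower. H2afx (97.3 to 134 CPM), H2afz (559 to 820 CPM) and H2afy (196 to 246 CPM) were higher, by 0.66 ± 0.15, 0.56 ± 0.12 and 0.69 ± 0.11 log2 units. H2afz there lay below its free RNA in control (1064 to 1267 CPM), and H2afx overlapped its own (98.0 to 113 CPM). The same genes were high in Z or P, and the P markers summed to 659 to 1136 CPM in control Sertoli cells and 379 to 557 CPM in SG. Their part in the result was not tested. H1fx (30.6 to 74.5 CPM, below its free RNA) and H2afv (150 to 197 CPM) were 1.73 ± 0.16 and 1.70 ± 0.11 log2 units lower, and H1f0 was 1.49 ± 0.16 lower. The H1f0 level in Sertoli cells overlapped its free RNA in control (9.78 to 17.9 CPM). H1f0 was the one member of the 8 whose control values in both Leydig cells (97.0, 94.5, 93.0 and 121 CPM) and interstitial cells (105, 89.4, 104 and 138 CPM) all lay above those in undifferentiated and differentiating SG. It held 75.6% of the UMIs of the H1f0 and H1fx pair in Leydig cells (72.6 to 83.2%, n = 4), 66.0% in interstitial cells and 15.6% in differentiating SG. These Leydig and interstitial values are a description, with no test.

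For each member the genes with the most similar course over 14 classes of control mice were ranked by Pearson r of log2 mean CPM among 10493 genes, as a description. H2afv was most like Dicer1 (r = 0.978), Traf3 and Ncl, and H2afx most like Zc3h7a (0.939), Fbxo3 and Emc2. H1f0 was most like Spop (0.934), Ctbp1 and Nucb1, H1fx most like Tubgcp2 (0.928), Ccne2 and Fam149b, and H2afz most like Dpp8 (0.912), Sirt2 and Dele1. H3f3b was most like Ythdc2 (0.845), Tmem165 and Itch, H2afy most like Pfdn5 (0.822), Ahdc1 and Elf2, and H3f3a most like Arhgef10l (0.707), Fat3 and Ap2a2. The classes share libraries, and neighbouring stages share transcripts, so these values do not come from independent points. Control endothelial cells came from replicate 4 alone, macrophages from replicate 1 alone and myoid cells from replicates 3 and 4. Spop, Ctbp1 and Nucb1 were highest in myoid or endothelial cells, and Arhgef10l and Ap2a2 in macrophages.

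Genes that place or read the variants were counted over lists chosen with earlier results known. Of 11 genes of the H2A.Z exchange list, 9 were higher and 2 lower in Z than in L (26.4% and 25.5% of all genes), with a median log2 fold change of 0.74 against -0.09 over all genes. Ruvbl2, a subunit of the exchange complexes, was 1.61 higher, and Anp32e, which removes H2A.Z, was 1.59 lower in L than in pL and 2.29 lower in P than in early SC. Of 13 genes of the H2AX list, 4 were higher and 6 lower in early SC than in SG (23.9% and 37.9% of all genes), with a median of -0.26 against -0.25 over all genes. Eya1, which encodes a phosphatase of H2A.X, had the largest difference of the list, at -4.32 ± 0.57 (adjusted p = 5.05e-08). Mdc1, the reader of phosphorylated H2A.X, was 2.25 higher and the kinase gene Atr 2.06 higher. Of 8 genes for H3.3 deposition, 4 were higher and 2 lower in that comparison, with Daxx at 1.31 and Atrx, its partner, at -1.67. Of 12 tested genes for other variants, 10 were higher in RS than in D (40.0% of all genes), with a median of 3.60 against 0.36 over all genes. They included the spermatid variants H2al1a (7.36), H1fnt (7.09) and H2al2a (6.98), and 1 of the 12 was lower. Of the 8 members, 2 were higher and 4 lower (40.0% of all genes higher, 29.4% lower).

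The cKO groups were compared with control within each class, with 9 mice per fit except in Z, where TDP-43 cKO replicate 1 had too few cells and 8 remained. In NELF-B cKO differentiating SG, H3f3b was at 4893 and 4218 CPM, against 2457, 2210, 2164 and 2412 CPM in control and 2267, 2516 and 2453 CPM in TDP-43 cKO. Both NELF-B cKO mice were above all 7 others. The log2 fold change was 1.00 ± 0.10 (adjusted p = 0.014), and H3f3b was 1 of 3 genes called higher among 16712 in this class, which was split off after the data were seen (0.0180% called higher and 0.0239% lower). The call was lost without control replicate 2, 3 or 4 (adjusted p from 0.0535 to 0.0763), with log2 fold changes from 0.97 to 1.01, and DESeq2 called 5 members. Here and below, counts from DESeq2, from mice left out and from unadjusted p are given without a share of all genes. They cannot be set against the edgeR shares. The other 7 members did not pass the test, H2afx having 0.86 ± 0.15 (adjusted p = 0.125), H1f0 0.90 ± 0.16 (0.125) and H1fx 0.65 ± 0.16 (0.175). In undifferentiated SG, H3f3b was at 1271 and 1555 CPM, against 1032 to 1133 CPM in control, a difference of 0.38 ± 0.09 that was not called (adjusted p = 0.141). None of the 8 was called there by edgeR (0.0134% of genes higher, 0.0268% lower), 5 had an unadjusted p under 0.05, and the largest differences were 0.95 ± 0.25 for H1f0, 0.77 ± 0.14 for H1fx and 0.74 ± 0.13 for H2afx. H3f3b held 76.7% of H3.3 UMIs in differentiating SG of NELF-B cKO (74.4 and 79.0%), against 67.1 to 68.9% in control. In differentiating SG, Leydig markers summed to 51.0 to 90.1 CPM in NELF-B cKO and 15.4 to 25.2 CPM in control. Interstitial markers were at 23.0 to 24.3 and 3.9 to 8.4 CPM, and cycling genes at 1918.6 to 1965.4 and 1770.4 to 1861.8 CPM. Their part in the result was not tested.

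In all SG of NELF-B cKO together, 0 members were called higher or lower by edgeR, where 0.0165% and 0.0220% of 18217 genes were, and 6 had an unadjusted p under 0.05. The log2 fold changes were 0.95 ± 0.13 for H3f3b (adjusted p = 0.0623 in edgeR), 0.98 ± 0.14 for H1f0 (adjusted p = 0.0623) and 0.87 ± 0.14 for H2afx (adjusted p = 0.132). DESeq2 called 5 members there, all higher, which were H3f3b (adjusted p = 7.16e-09), H1f0, H2afx, H3f3a and H1fx. The share of all genes that DESeq2 called is not given here. Without NELF-B cKO replicate 2, edgeR called 4, which were H2afx, H3f3b, H1f0 and H1fx. The replicates differed in their share of undifferentiated SG, which was 14.4 and 36.8% in NELF-B cKO and 28.4 to 35.3% in control. Leydig markers summed to 49.1 to 77.8 CPM in SG of NELF-B cKO and 13.6 to 23.5 CPM in control, and Sertoli markers to 75.4 to 332 CPM and 71.5 to 163 CPM. Control Leydig cells had 1151 to 1235 CPM of H3f3b, below differentiating SG, and 93.0 to 121 CPM of H1f0, above the 31.4 to 37.9 CPM of control SG. The part of these markers in the result was not tested.

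**Figure D3:**
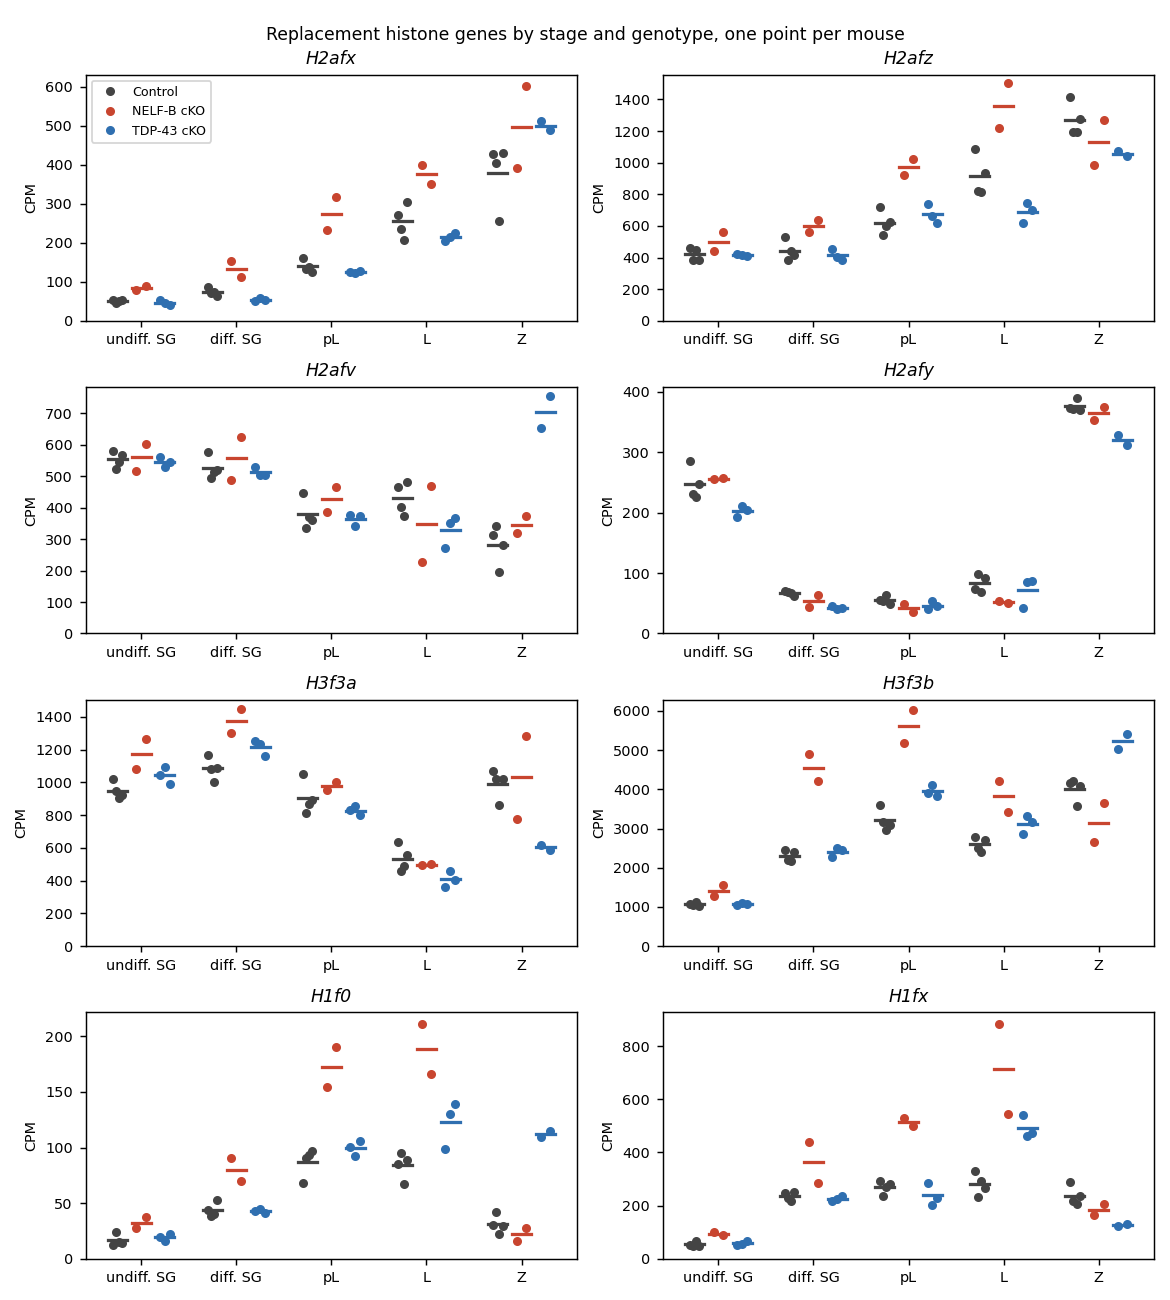
CPM of each member (y axis, from 0, a separate scale per gene) by stage (x axis) in mice of the 3 genotypes (4 control, 3 TDP-43 cKO, of which 2 in Z, and 2 NELF-B cKO), with 1 point per mouse and the mean as a bar. Z cells of TDP-43 cKO come mostly from a cluster with 1 control cell. In pL, both NELF-B cKO mice lie above all control mice at H2afx, H2afz, H3f3b, H1f0 and H1fx.

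In pL of NELF-B cKO, 4 members were called higher and 0 lower, where 0.221% of 12683 genes were called higher and 0.268% lower. H3f3b was at 5175 and 6034 CPM, against 3606, 3179, 2964 and 3087 CPM in control (log2 fold change 0.81 ± 0.09, adjusted p = 0.0137). H2afx was at 233 and 317 CPM, against 160, 133, 139 and 125 CPM (0.98 ± 0.13, adjusted p = 0.0235). H1f0 was at 155 and 190 CPM, against 68.5, 90.4, 93.6 and 96.6 CPM (0.99 ± 0.14, adjusted p = 0.027). No NELF-B cKO value overlapped control for these genes. H1fx was at 529 and 499 CPM, against 235 to 293 CPM (0.94 ± 0.14, adjusted p = 0.0346), and H2afz at 921 and 1022 CPM, against 541 to 716 CPM, missed the threshold (0.66 ± 0.12, adjusted p = 0.0536). All 4 calls were lost without control replicate 2, 3 or 4 or NELF-B cKO replicate 2 (adjusted p from 0.0556 to 0.144), the log2 fold changes then being 0.65 to 1.02, and H1fx also without NELF-B cKO replicate 1 (adjusted p = 0.0562). DESeq2 called all 4 and H2afz. H3f3a (954 and 1000 CPM, against 813 to 1050 CPM) and H2afv overlapped control, so H3f3b but not H3f3a was called among the genes of the same protein. The difference between their responses was not tested.

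In L of NELF-B cKO, 3 members were higher and 0 lower, where 1.86% of 13373 genes were called higher and 0.733% lower. H1fx was at 884 and 546 CPM, against 330, 231, 291 and 267 CPM in control (1.33 ± 0.20, adjusted p = 0.0255). H1f0 was at 212 and 166 CPM, against 66.9 to 95.5 CPM (1.15 ± 0.17, adjusted p = 0.0255), and H3f3b at 4214 and 3428 CPM, against 2411 to 2780 CPM (0.53 ± 0.12, adjusted p = 0.0464). Without control replicate 1, 3 or 4, none of the 3 calls remained (adjusted p from 0.0561 to 0.131), without control replicate 2 H1f0 alone remained (adjusted p = 0.0494), and without NELF-B cKO replicate 1 H3f3b was lost (adjusted p = 0.122). Without NELF-B cKO replicate 2, H2afv was called too (-0.94, adjusted p = 0.0189). DESeq2 called 5 members. The Z cells came from a pair of clusters. One, with a median of 37421 UMIs per cell, held 893 of the control Z cells, and the other, with 15347, held 1 of them but 25 of 44 and 5 of 32 Z cells in NELF-B cKO. In Z, edgeR called none (4.50% of 13508 genes higher, 0.844% lower), 2 members (H3f3b and H1fx) had an unadjusted p under 0.05, and the differences of H3f3b, H1f0 and H1fx were -0.46 ± 0.19, -0.54 ± 0.30 and -0.47 ± 0.20. H2afy in Z was 353 and 374 CPM, against 369 to 390 CPM. In the shared cluster alone, with no cell left out (20 and 29 cells), none was called (0.397% of 13113 genes higher, 0.0305% lower), and H3f3b had an unadjusted p under 0.05 in edgeR (-0.39 ± 0.17).

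Over early SC as a whole, 2 members were higher and 1 lower in NELF-B cKO, where 15.4% of 16654 genes were called higher and 14.9% lower. H1f0 was at 162 and 136 CPM, against 51.7, 61.7, 46.1 and 52.0 CPM (1.36 ± 0.14, adjusted p = 0.000792), and H1fx at 639 and 438 CPM, against 224 to 298 CPM (0.96 ± 0.17, adjusted p = 0.00364). H2afy was at 90.6 and 135 CPM, against 231 to 263 CPM (-1.28 ± 0.33, adjusted p = 0.0147), and lost this call without NELF-B cKO replicate 1 (adjusted p = 0.109). Z made up 4.6 and 8.3% of early SC in NELF-B cKO and 20.8 to 34.2% in control. H2afy is high in Z of control mice. Within pL, L and Z alone its differences were -0.40 ± 0.18, -0.69 ± 0.25 and -0.17 ± 0.15, none of them called. The summed cycling genes were at 1735 to 1924 CPM in early SC of NELF-B cKO and 1198 to 1313 CPM in control, and the P markers at 776 to 887 and 1832 to 2210 CPM. Leydig markers were at 54.8 to 84.6 CPM, against 12.4 to 40.3 CPM in control, interstitial markers at 10.7 to 21.3 CPM, against 2.5 to 6.3 CPM, and Sertoli markers at 99.4 to 414 CPM, against 80.1 to 159 CPM. Free RNA of H1f0 was higher in the cKO mice too, as given above, at levels below those of H1f0 in these early SC. The part of the Z share, the markers and the free RNA in these results was not tested.

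**Figure D4:**
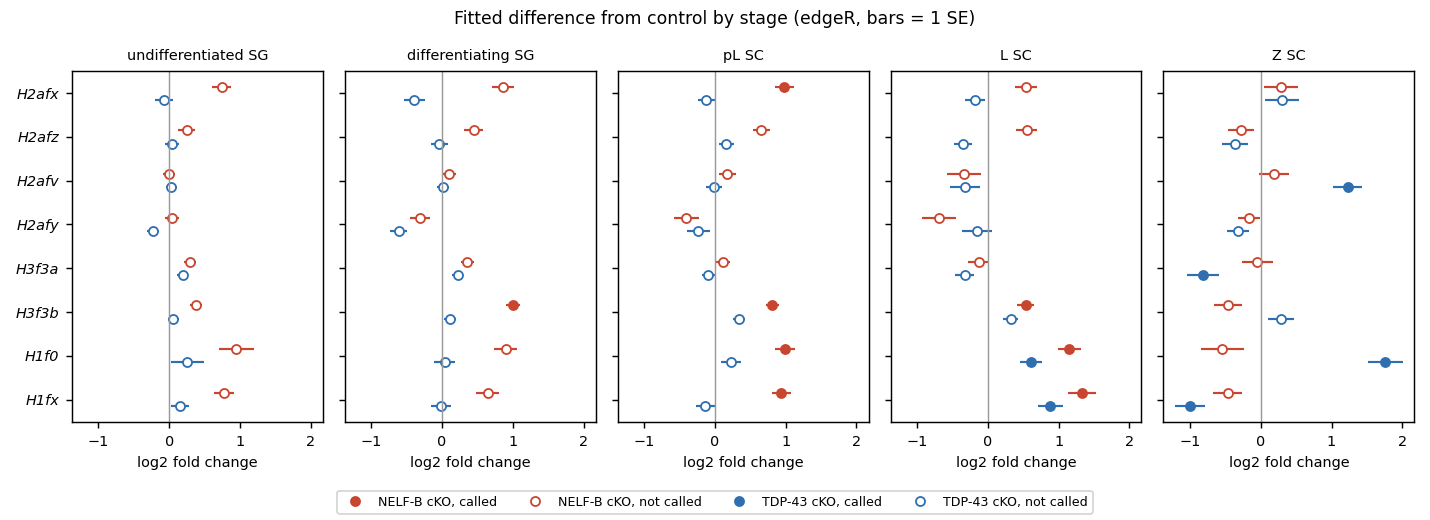
Log2 fold change from control (x axis, bars 1 SE) of each member (y axis) in 5 stages (panels) for NELF-B cKO (red, n = 2) and TDP-43 cKO (blue, n = 3, in Z n = 2), with filled points called at an adjusted p under 0.05. In pL the NELF-B cKO values of H2afx, H3f3b, H1f0 and H1fx lie between 0.81 and 0.99, while those of TDP-43 cKO lie between -0.14 and 0.34.

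In SG of TDP-43 cKO, edgeR called none of the 8 members (0.00% of genes higher, 0.00549% lower), with differences from -0.27 ± 0.13 for H2afx to 0.23 ± 0.09 for H3f3a. There was 1 unadjusted p under 0.05 in edgeR (H3f3a) and 1 DESeq2 call (H3f3a, adjusted p = 0.0379). None was called in undifferentiated SG (0.0201% higher, 0.00670% lower) or in differentiating SG (0.00% higher, 0.0180% lower), where H2afy had the largest difference, at 45.1, 40.0 and 41.4 CPM against 62.6 to 70.6 CPM (-0.61 ± 0.12, adjusted p = 0.119). In edgeR, 2 members had an unadjusted p under 0.05 in undifferentiated SG (H2afy and H3f3a) and 3 in differentiating SG (H2afx, H2afy and H3f3a). In pL none was called either (0.0315% higher, 0.0158% lower), with an unadjusted p under 0.05 for 1 member, H3f3b, at 3908, 4099 and 3837 CPM, above the 2964 to 3606 CPM of control (0.34 ± 0.08, adjusted p = 0.0977).

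In L of TDP-43 cKO, 2 members were higher and 0 lower (8.05% of genes higher, 9.80% lower). H1fx was at 540, 463 and 475 CPM, against 231 to 330 CPM (0.89 ± 0.18, adjusted p = 0.0205), and H1f0 at 98.8, 130 and 139 CPM, against 66.9 to 95.5 CPM (0.61 ± 0.15, adjusted p = 0.0282). All TDP-43 cKO mice were above all control mice at both linker histone genes. The H1f0 call was lost without any 1 of these mice except control replicate 2 (adjusted p from 0.0602 to 0.0998), and the H1fx call without control replicate 4 (0.0568) or TDP-43 cKO replicate 1 (0.117). Z had enough cells in TDP-43 cKO replicates 2 and 3 alone (73 and 78 cells, against 6 in replicate 1), and 69 and 75 of these lay in the cluster that held 1 control cell. In Z, genotype and cluster therefore cannot be told apart. There 2 members were higher and 2 lower (23.9% of genes higher, 28.2% lower). H1f0 was at 109 and 115 CPM, against 21.8 to 42.4 CPM (1.76 ± 0.25, adjusted p = 0.000104), and H2afv at 654 and 756 CPM, against 196 to 342 CPM (1.23 ± 0.20, adjusted p = 0.000362). H1fx, at 122 and 130 CPM against 205 to 287 CPM, and H3f3a, at 620 and 589 CPM against 860 to 1067 CPM, fell by 1.004 ± 0.21 and 0.81 ± 0.23 on the log2 scale, the H3f3a call being lost without TDP-43 cKO replicate 3 (adjusted p = 0.0797). The H1fx values lie within its free RNA, and the H3f3a values below its free RNA in these mice, at 689 and 721 CPM. The Z cluster shared with control held 82 and 70 cells of these mice, and Tardbp was detected in all but 4 and 3 of them, too few for a comparison of cells without it. With no cell left out, edgeR called none of the 8 in that cluster, and none had an unadjusted p under 0.05 (0.0153% of genes higher, 0.00% lower), which says nothing of cells without a Tardbp UMI. A Tardbp UMI from the 3′ end does not show that exon 3 was kept. The shared cluster had a median of 37421 UMIs per cell and the other 15347, so removal by a Tardbp UMI left mostly the less deeply sequenced Z cells.

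Over early SC as a whole, 1 member was higher and 4 lower in TDP-43 cKO (24.0% of genes higher, 27.1% lower). H1f0 was at 99.0, 113 and 124 CPM, against 46.1 to 61.7 CPM (1.00 ± 0.13, adjusted p = 0.000122). H2afy was at 48.2, 125 and 126 CPM, below its free RNA in these mice (110 to 159 CPM), against 231 to 263 CPM in control (-1.42 ± 0.28). H2afz, H3f3a and H2afx were lower by 0.63 ± 0.12, 0.66 ± 0.13 and 0.53 ± 0.19 log2 units. In these cells the P markers summed to 159 to 382 CPM, against 1832 to 2210 CPM in control, the cycling genes to 1744 to 1940 CPM, against 1198 to 1313 CPM, and the Sertoli markers to 176 to 231 CPM, against 80.1 to 159 CPM. Their part, and that of the higher free RNA of H1f0 and H2afv and the lower free RNA of H2afz, was not tested. With the cluster that held 1 control Z cell left out, the 5 calls over early SC remained. H1fx was then called higher too (0.51 ± 0.15, adjusted p = 0.0152). The step left 0, 4 and 3 Z cells in TDP-43 cKO, against 142 to 361 in control. With so few Z cells in TDP-43 cKO, it cannot tell these calls apart from the lower Z share. The H2afx call was lost without any 1 of control replicates 1 and 4 and TDP-43 cKO replicates 1, 2 and 3 (adjusted p from 0.0539 to 0.0822). Z made up 2.6 to 15.7% of early SC in TDP-43 cKO, against 20.8 to 34.2% in control. The 4 lower members were all called higher in Z than in L of control mice. No member was called lower in pL or in L of TDP-43 cKO, and of these 4 H3f3a alone was called lower in Z. The part of the Z share was not tested. Removing germ cells in which Tardbp was detected also chooses among cells and stages. In Z it left mostly the cluster with fewer UMIs per cell. When the same cells were left out of the control mice, H1f0 was the one member called (0.58 ± 0.14, adjusted p = 0.0298), and H2afx, H2afz and H2afy were at 0.38, 0.032 and 0.32. With no cell left out of any mouse, H2afz, H2afy and H3f3a were called lower and H1f0 higher (0.88 ± 0.13, adjusted p = 0.00271). With finer clusters fewer members were called, as counted in the closing section.

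SG and early SC were also summed together. In NELF-B cKO, H1f0 (0.97 ± 0.14) and H1fx (0.63 ± 0.19) were higher and H2afy (-1.01 ± 0.20) lower, 2 and 1 of 8 where 9.86% and 14.3% of 19884 genes were called. With finer clusters none of these calls remained (smallest adjusted p = 0.0563 in edgeR). Over all alternatives H2afy ran from -1.40 to -0.22. H1fx lost its call without control replicate 2, 3 or 4 or NELF-B cKO replicate 1 (adjusted p from 0.0777 to 0.479). In TDP-43 cKO, 0 members were higher and 4 lower (17.8% and 25.7% of genes), which were H2afx (-1.18 ± 0.19), H2afy (-1.14 ± 0.17), H2afz (-0.85 ± 0.12) and H3f3b (-0.38 ± 0.12). The last was lost without control replicate 1 or 4 or TDP-43 cKO replicate 1 or 3 (adjusted p from 0.067 to 0.121). SG were 22.8 to 38.6% of these cells in control, 40.4 and 53.9% in NELF-B cKO and 50.5 to 59.5% in TDP-43 cKO, and the 4 genes that were lower were lower in SG than in early SC of control mice. Leydig markers summed to 51.7 to 80.3 CPM in NELF-B cKO and 12.7 to 35.2 CPM in control, and interstitial markers to 16.2 to 21.5 and 3.6 to 5.9 CPM. Cycling genes were at 1609.5 to 1852.3 and 1277.5 to 1377.0 CPM. P markers were at 449.3 to 576.6 CPM in NELF-B cKO, 165.2 to 275.4 CPM in TDP-43 cKO and 1224.8 to 1719.9 CPM in control. The part of the SG share and of these markers in the result was not tested. When control cells in which Tardbp was detected were removed as well, edgeR called 0 members in TDP-43 cKO, and 0 had an unadjusted p under 0.05. The smallest adjusted p among the 8 was then 0.327.

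The difference between the cKO groups was tested in the same fits. In SG, NELF-B cKO was above TDP-43 cKO at H2afx (140 and 103 CPM, against 52.1, 54.1 and 49.2 CPM) by 1.14 ± 0.15 (adjusted p = 0.0371) and at H1f0 (79.4 and 55.0 CPM, against 31.6, 35.2 and 35.1 CPM) by 0.90 ± 0.14 (adjusted p = 0.0465), 2 of 8 members where 0.104% of genes were higher and 0.192% lower. Both calls were lost without NELF-B cKO replicate 1 or any 1 TDP-43 cKO replicate (adjusted p from 0.0889 to 0.181), and 4 members were called without NELF-B cKO replicate 2. H3f3b was just short of the threshold (0.86 ± 0.14, adjusted p = 0.0506). Free RNA of H2afx was at 128.5 and 128.3 CPM in NELF-B cKO and 85.9 to 126.7 CPM in TDP-43 cKO. The SG values of H2afx lay below it in each mouse except the NELF-B cKO mouse at 140 CPM. The H1f0 values of TDP-43 cKO in SG lay below its free RNA there, at 42.0 to 47.9 CPM. In early SC, H2afz was 0.63 ± 0.14 higher in NELF-B cKO (adjusted p = 0.0218), 1 of 8 where 6.57% of genes were higher and 2.39% lower. It was lost without NELF-B cKO replicate 2 (adjusted p = 0.105) or TDP-43 cKO replicate 3 (0.0664).

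Stra8-iCre is not known to act in Sertoli cells, which in cKO mice carry the null allele beside the floxed one. Nelfb there was at 6.29 to 10.45 CPM in NELF-B cKO, against 20.4 to 28.6 CPM in control, and Tardbp at 74.5 to 80.9 CPM in TDP-43 cKO, against 104 to 111 CPM. The cause was not tested. In these cells neither edgeR nor DESeq2 called a member in NELF-B cKO (0.00% of 14958 genes higher, 0.00% lower in edgeR) or in TDP-43 cKO (4.26% higher, 9.32% lower). In edgeR 1 member had an unadjusted p under 0.05 in each, H1f0 in NELF-B cKO and H2afv in TDP-43 cKO. The linker histone genes had the widest spread there. H1fx was at 180 and 22.5 CPM in NELF-B cKO, against 30.6 to 74.5 CPM in control (0.87 ± 0.62, adjusted p = 0.581), and H1f0 at 40.9 and 13.3 CPM, against 7.79 to 16.7 CPM (1.06 ± 0.40, adjusted p = 0.422). NELF-B cKO replicate 1 alone lay above control for both. Leydig markers summed to 134.9 to 458 CPM in Sertoli cells of NELF-B cKO and 20.0 to 44.5 CPM in control, and their part was not tested. In Leydig cells H1f0 was at 94.3 and 88.1 CPM in NELF-B cKO and 128, 136 and 113 CPM in TDP-43 cKO, against 93.0 to 121 CPM in control, and H2afx at 68.0 and 63.8, then 86.6, 109 and 179 CPM, against 52.3 to 83.9 CPM. NELF-B cKO replicate 1, the one cKO mouse of that group with at least 20 P, D and RS, had in P (no cell left out) 1351 CPM of H3f3b, below the 1808 to 1935 CPM of control, and 132 CPM of H2afx, within 115 to 148 CPM. These late cells and Leydig cells were not tested.

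Among the genes that place or read the variants, 5 of 11 H2A.Z exchange genes were lower and 1 higher in early SC of NELF-B cKO, where 14.9% of all genes were lower and 15.4% higher (median log2 fold change -0.37 against 0.00 over all genes), with Znhit1 at -1.28 and Anp32e at 1.09. In TDP-43 cKO, 8 were lower and 1 higher, where 27.1% and 24.0% of all genes were (median -0.42 against 0.03), with Znhit1 at -1.83 and Anp32e at 1.31. Of 12 tested genes of the H2AX list, 4 were higher and 1 lower in NELF-B cKO and 5 and 1 in TDP-43 cKO, against the same shares of all genes, with the kinase gene Atm at 1.44 and 1.64. Of 8 genes for H3.3 deposition, 1 was higher and 1 lower in NELF-B cKO and 3 and 1 in TDP-43 cKO, against the same shares. Among them Atrx was at 1.29 and 1.14 and Daxx at -0.51 and -0.96. Of 10 tested genes for other variants, 2 were higher and 1 lower in NELF-B cKO (median 0.00) and 2 and 5 in TDP-43 cKO (median -1.79). Znhit1, Atm, Atrx and Daxx also differed between Z and L in control (1.70, -2.56, -3.07 and 1.17), and the cKO comparisons share their control mice. The cycling genes were higher at 5 of 10 in NELF-B cKO and at 7 of 10, with 1 lower, in TDP-43 cKO (15.4% and 24.0% of all genes higher). In SG, 0 genes of these lists were called in either cKO, where 3 genes in all were higher and 4 lower in NELF-B cKO and 0 and 1 in TDP-43 cKO.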

How the data were processed

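Raw UMI counts per gene and barcode were used as deposited, made by the authors with Cell Ranger (6.1.1 and 7.0.0 in the submitters' processing notes) on mm10. The headers of the count matrices name another Cell Ranger version, and which version made which matrix is not known. Barcodes needed over 1000 genes and under 10% mitochondrial UMIs, as in the study. Clusters (scanpy 1.11.5, Leiden resolution 0.8, 3000 variable genes, 40 components) were named from marker genes, and 100 barcodes occurred in more than 1 library. No doublet caller was run. Cells of a class were summed per mouse. Sums were tested with edgeR 4.0.16 (filterByExpr, TMM, quasi-likelihood F test, Benjamini-Hochberg over all genes tested) in R 4.3.3, checked on simulated counts. DESeq2 1.42.0, other scalings, no low-count filter, single mice left out, finer clusters (resolution 1.2) and other cell removals were alternatives. All 8 members were named. Of each related list, up to the 3 called genes with the largest changes could be named, and 3 most similar genes per member. The members and lists were chosen with earlier results of these data known. Deviations from the group mean correlated at -0.35 to 0.31 between same-numbered mice, and at 0.16 to 0.31 between those of control and NELF-B cKO. Differently numbered mice were not compared, so whether the replicate numbers pair the mice is not known. Sequences came from RefSeq (7 of 8 promoters, GRCm38.p6) and GENCODE transcripts.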

Additional observations from a re-analysis of the deposited data

Results flagged for a closer look

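Of 64 groups of 4 control mice, 3 held a mouse far from the others, and chance gives about 1 in 20. H3f3b in Leydig cells was 1235 CPM in control replicate 3, where the others were 1151 to 1162 CPM. H1f0 in Leydig cells was 121 CPM in control replicate 4, against 93.0 to 97.0 CPM, and H2afv in interstitial cells was 267 CPM in the same mouse, against 178 to 191 CPM.

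Differences between the cKO groups passed the test of the difference at 3 points. In SG, NELF-B cKO was above TDP-43 cKO by 1.14 on the log2 scale at H2afx and by 0.90 at H1f0. In early SC it was above by 0.63 at H2afz. Each of these calls was lost when 1 of several mice was left out. The H2afx and H1f0 values of TDP-43 cKO in SG lay below the free RNA of these genes in that group, as given above.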

How the results depend on the processing

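Of 2104 values of single members under the alternatives, 1919 stayed on their side of the threshold without a reversed call, 86 lost the call and 76 gained it. In all, 147 had the other sign, 23 of them with a call on at least one side. With stricter limits, 0.01 for the adjusted p and 1 for the size of the log2 change, the members called were 3 for early SC against SG, 2 for P against early SC, 1 for D against P, 3 for Sertoli cells against SG, 1 for pL against differentiating SG, 0 for L against pL and 3 for Z against L. In the same terms they were 1 and 2 for NELF-B and TDP-43 cKO over SG and early SC, 1 and 1 in early SC, and 0 between the cKO groups in SG and in early SC. DESeq2 called 5 in D against P, 5 and 1 in SG of NELF-B and TDP-43 cKO, and 4 between the cKO groups in SG. Without the filter on low counts, 2 were called in SG of NELF-B cKO, and in its differentiating SG alone 1. Scaled by library size alone, 5 were called in D against P. With finer clusters the counts were 8 in D against P, 0 and 1 for NELF-B and TDP-43 cKO over SG and early SC, and 2 in early SC of TDP-43 cKO. The share of all genes called changes with such alternatives too and is not given for them. Their member counts therefore cannot be read as results about the members. Leaving cells with a UMI of the target out of control too gave 0 for TDP-43 cKO over SG and early SC and 1 in early SC. With no cell left out, 0 were called between the cKO groups in SG and in early SC. For single stages, 0 were called in Z of NELF-B cKO, 0 in the shared Z cluster of NELF-B and 0 in that of TDP-43 cKO (with no cell left out), 0 in pL and 2 in L of TDP-43 cKO. Leaving out 1 mouse at a time gave 3 to 5 members in D against P, 0 to 4 in SG of NELF-B cKO, and 0 to 4 in SG and 0 to 2 in early SC between the cKO groups, and in single stages 0 to 4 in differentiating SG, 0 to 5 in pL and 0 to 4 in L of NELF-B cKO and 0 to 2 in L of TDP-43 cKO. DESeq2 called 5 in differentiating SG and 5 in L of NELF-B cKO and 4 in L of TDP-43 cKO. These stage alternatives were chosen after seeing the data, and where 1 cKO mouse is left it is assumed to vary like the other groups.

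Reversed values were as follows. With finer clusters H2afy was -0.20 in early SC against SG and -0.62 in L against pL, H3f3b was 0.43 in P against early SC, H2afv was -0.57 in D against P, -0.43 in L against pL and 1.19 in Z against L, and H1fx was -1.15 in Z against L. By library size alone H3f3a was -0.28 and H1fx -0.47 in P against early SC. With the cells left out of control too, TDP-43 cKO had H3f3b at 0.12 over SG and early SC, and H2afx at 0.38, H2afz at 0.032 and H2afy at 0.32 in early SC. In Z alone NELF-B cKO had H1f0 at -0.54 and H1fx at -0.47, and TDP-43 cKO had H2afx at 0.30 and H1fx at -1.004, and in pL alone H2afz at 0.16. In the shared Z cluster NELF-B cKO had H1f0 at -0.54 and H1fx at -0.14, and TDP-43 cKO had H2afx at 0.37, H2afy at 0.003 and H3f3a at 0.11, the TDP-43 values being mostly from cells in which Tardbp was detected. Apart from the construction of each alternative, the cause was not tested.

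With the replicate number as a replicate block, the members called went from 3 to 1 for NELF-B cKO over SG and early SC and to 0 between the cKO groups in SG and in early SC, and were within 1.5 times of the unblocked count in the other cKO comparisons. Whether the numbers pair the mice is not known. With 2 NELF-B cKO mice and few Z cells in either cKO, differences missed here may still exist.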
